A study of Helianthus annuus with 9 samples.

Results

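Seeds of the sunflower Helianthus annuus taken at day 37 were compared with seeds taken at day 22, across every small RNA entry in the deposited count table except the totals for exons, introns and intergenic sequence. The comparison uses 6 of the 9 small RNA libraries of the series, 3 at each of the days 22 and 37, and the 3 libraries of day 7 are given here as a reference level. All plants were of one line, L-1-OL-1, a line with oil high in oleic acid, grown in a field with no treatment named in the labels. The event from which days were counted was not given in the sources used here. Nor was it stated whether libraries of the same day are from different plants, so the p-values cover only how these libraries vary, which may be technical variation. Of 8473 small RNA entries, 316 were known miRNAs or their hairpins, and these were summed by family number into 39 families, which left 8196 small RNAs. The others were 49 predicted miRNAs, 7735 small interfering RNAs (siRNAs) and 373 structural RNAs. The table holds no messenger RNA, so the labelled tissue was not checked against seed markers.

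Plant microRNAs (miRNAs) are cut from a folded hairpin by the enzyme DCL1, are loaded into AGO1 and pair almost perfectly with messenger RNAs, most often of transcription factors, which are then cut or kept from translation. Small interfering RNAs come from long double-stranded RNA: those of 21 and 22 nt are products of DCL4 and DCL2 and act mostly on transcripts, while those of 24 nt are products of DCL3, usually begin with A, are loaded into AGO4 and direct DNA methylation at transposons and repeats. A seed goes from cell division over filling with oil and protein to drying, and several miRNA families are known to time these steps. Small RNA libraries also hold pieces of ribosomal, transfer and small nucleolar RNA, which are not products of the silencing pathways.

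The predicted miRNAs with the largest changes between the days are shown first, since their identity rests on the sequence alone. Capitals mark bases 2 to 8, the seed if the entry is a miRNA, and the first 5 were higher at day 37 and the last 5 lower. The entries are miRNAs by prediction only, and whether some are fragments of structural RNA was not tested.
novel_mir92: aGTTGGTTaggatactcggctctcaccc
novel_mir78: cACAAGCTggcttgcccgttccaagttgtg
novel_mir18: tCCAGCGGttaggatatctggctttcacc
novel_mir8: gACGACTTaaatacgtgacggggtattgt
novel_mir60: cCTACCGAttgaatggtccg
novel_mir9: aCGTTGAGccttaagaccagctagg
novel_mir25: cTGACATGgtatgagagtagttaa
novel_mir57: tGGCAGTCcaagtagtagcgggggagtcat
novel_mir53: gTACTCTCaaaaggccagaagcg
novel_mir40: tTTCCTCGgtggctttgaaatcagagga
No stretch of capitals occurs more than once among these 10 sequences.

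The 2 most abundant siRNAs at day 37 belong to a group of overlapping guides, of which 5 are shown. The longest stretch that each shares with novel_sir17151, the most abundant of them, is in capitals.
novel_sir17151: TAAACATCCATTGAGCCTAAGA
novel_sir11739: TAAACATCCATTGAGCCTAAG
novel_sir17197: ATTGAGCCTAAGAtgtataatt
novel_sir13922: AACATCCATTGAGCCTAAGAtg
novel_sir9274: gaTAAACATCCATTGAGCCTA
Their ends differ by a few bases, so entries of the table are not independent of each other, and the siRNA counts below are also given as groups of overlapping guides.

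The 6 libraries held 31581207 to 34397084 reads, of which 3330516 to 4050364 fell in small RNA entries. Levels below are CPM, reads per 1000000 reads in small RNA entries with TMM-scaled totals, shown per library or as mean ± SD (n = 3). Each change is the log2 ratio of day 37 over day 22, with its standard error (SE). In the edgeR quasi-likelihood test, 7132 small RNAs were tested and 1359 of them (19.1%) were higher at day 37 and 2311 (32.4%) lower at an adjusted p under 0.05, together 51.5%. The median log2 change was -0.15, and -0.41 among the 6228 that had reads at day 22 or day 37 (-0.17 with zeros at their limits, given below). Rises made up 37.0% of calls. They made up 23.99% when plain library totals set the scale and 58.6% when totals of known miRNAs did (called miRNA totals below), and these scalings shifted the median by -0.46 and 0.59. Scaling to all reads shifted it by -0.27, and RLE factors and the upper quartile by 0.15 and 0.16. Structural RNA took 6.10%, 6.81% and 4.08% of small RNA reads in the day 22 libraries and 22.5%, 14.5% and 14.9% in those of day 37, with the highest value in day 37 replicate 1, and its part in the changes below was not tested beyond the fits named. With structural RNAs left out of totals and factors, 1386 small RNAs were higher and 2279 lower.

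Known miRNAs took a smaller part of the small RNA reads at day 37 in every library. Their share was 18.9%, 18.9% and 19.8% at day 22 and 7.94%, 9.16% and 10.6% at day 37, a difference of -9.99 percentage points (exact two-sided permutation p = 0.1, the smallest that 3 against 3 libraries allow). They were also lower as a share of all reads, 2.02% ± 0.0896 at day 22 against 1.10% ± 0.168 at day 37 (SD, n = 3). Ribosomal RNA moved the other way, from 5.203%, 5.82% and 3.51% to 19.5%, 13.0% and 13.3%. The few siRNA entries of 25 to 30 nt went from 0.401% ± 0.103 to 1.48% ± 0.257. In each of these classes the days did not overlap, and p was 0.1 (0.2 adjusted over 14 classes).

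The siRNA classes that make up most of the reads changed less in proportion. The 21-nt share was 39.1%, 38.8% and 41.0% at day 22 and 32.7%, 37.3% and 36.5% at day 37, without overlap between the days. Its exact permutation p was 0.1 (0.2 adjusted over 14 classes). Yet of all reads the 21-nt share was 4.15% ± 0.198 and 4.24% ± 0.311, so that its direction depends on the denominator. The 22-nt share was 19.3% ± 0.527 and 19.7% ± 1.17 (exact permutation p = 0.6). The 24-nt share was 9.44% ± 0.575 and 10.2% ± 0.508 (exact permutation p = 0.3), both far from the 19.4% ± 0.624 of day 7.

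**Figure D1:**
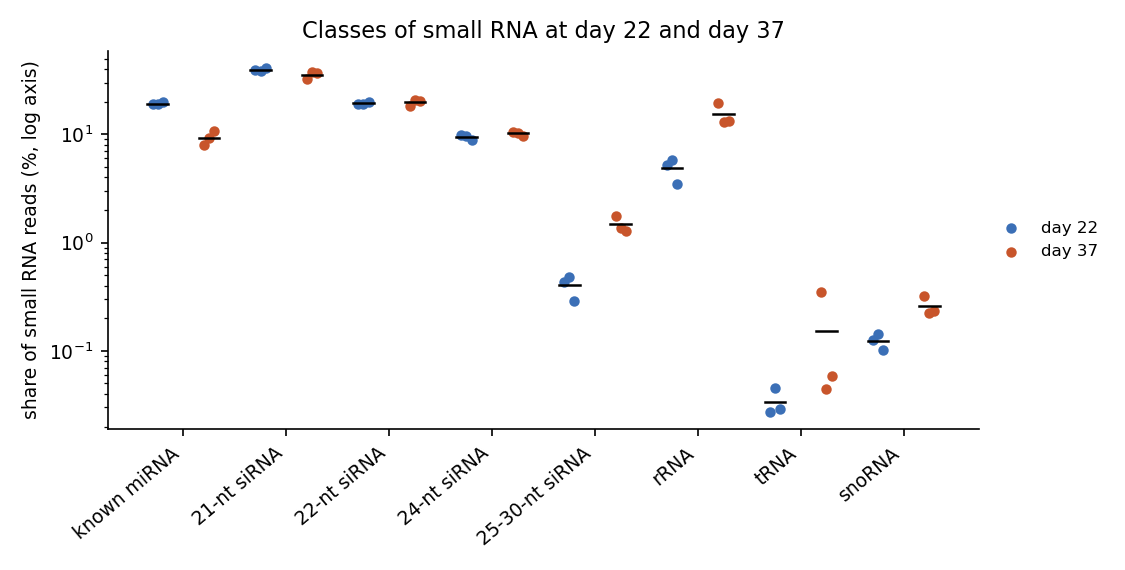
Share of the reads in small RNA entries, in percent on a log axis, for 8 classes at day 22 and day 37, where each point is 1 library and the black line the mean of 3. Known miRNAs lie lower in all day 37 libraries and ribosomal RNA higher, while the days overlap for siRNAs of 22 and 24 nt and for transfer RNA.

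Among 33 families tested, 8 were higher at day 37, 13 lower and 12 did not pass, against 19.1% higher and 32.4% lower over all small RNAs. Their median log2 change was -0.29. Reads moved between near-identical entries of a family from library to library: in 94 of 387 cases, counting each entry once a day, the highest library exceeded the lowest by 10-fold or more. The entry named miR156 had 183, 161 and 1 reads at day 22 and 15826, 21826 and 165 at day 37, while the summed family varied little within a day. Taken singly, 32 of 195 known entries were higher and 52 lower. In bulk seed, fewer cells of a type and less RNA per cell cannot be told apart.

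The phase-change families, which set the passage from juvenile to adult growth, parted at day 37. The miR156 family, which represses SPL transcription factors, stood at 6342, 6010 and 7281 CPM at day 22 and at 8954, 10824 and 11064 CPM at day 37, with no overlap between the days. It rose (log2 0.65, SE 0.11, adjusted p = 0.0013), from a day 7 level of 529 CPM. Entries named miR157, a close relative that acts on the same targets, went from 2429, 2517 and 3166 to 767, 886 and 934 CPM and fell (log2 -1.65, SE 0.13, adjusted p = 1.1e-05), back to near the 800 CPM of day 7. The names part these families, not necessarily the molecules: joined, they stood at 9248 ± 1046 and 11143 ± 1240 CPM and did not pass (log2 0.27, SE 0.11, adjusted p = 0.0835). The rise of miR156 did not pass under library totals alone (log2 0.18, adjusted p = 0.308) or under scaling to all reads (0.37, adjusted p = 0.0601). The third family, miR172, which represses AP2-like flowering regulators, was rare, at 43.1, 38.5 and 48.4 CPM and then 19.2, 13.0 and 11.0 CPM. It fell (log2 -1.59, SE 0.20, adjusted p = 0.000182), and 79.1% and 85.8% of its reads stood in hairpin entries at the 2 days, with a change of -2.14 in the mature entries.

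Among auxin families, of which 4 were tested, miR167 was higher and miR393 lower, and the other 2 did not pass, beside 19.1% higher and 32.4% lower over all small RNAs. The family miR167, which restrains the auxin response factors ARF6 and ARF8, was at 15220, 19658 and 18584 CPM and then at 22172, 30042 and 36607 CPM, above all day 22 libraries. Its rise (log2 0.73, SE 0.24, adjusted p = 0.0302) missed the threshold whenever replicate 1 or 3 of day 22, or replicate 2 or 3 of day 37, was dropped (log2 0.55 to 0.79, with adjusted p from 0.053 to 0.104), and also with library totals alone (0.27, adjusted p = 0.391). The family miR393, which targets the auxin receptors TIR1 and AFB, dropped from 81.3, 68.5 and 92.2 CPM to 9.99, 10.3 and 12.8 CPM (log2 -2.87, SE 0.17, adjusted p = 2.17e-06), continuing down from 205 CPM at day 7. The Rfam model of its precursor, a separate entry, had 12, 20 and 8 reads at day 22 and 0 in all libraries of day 37. The families miR160, which targets the repressing auxin response factors ARF10, ARF16 and ARF17, and miR390, which starts the trans-acting siRNAs against ARF3 and ARF4, overlapped between the days: miR160 was at 1303 ± 180 and 1498 ± 417 CPM, and miR390 at 480 ± 53.9 and 393 ± 70.7 CPM. Their changes were 0.20 and -0.29, and turned to -0.26 (library totals) and 0.31 (miRNA totals) respectively.

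The list of developmental factors held the largest loss of miRNA reads in the comparison. The family miR396, which restrains the growth-regulating factors (GRF) that keep cells dividing, had 51261, 54496 and 61290 CPM at day 22 and 4613, 3412 and 3550 CPM at day 37. It was the most abundant family at day 22 and fell (log2 -3.85, SE 0.14, adjusted p = 2.17e-07), and its day 7 level had been 42074 CPM. The family miR164, which targets NAC factors of the CUC group that set organ boundaries, went from 6678, 7055 and 8196 CPM to 879, 872 and 1116 CPM (log2 -2.94, SE 0.13, adjusted p = 5.35e-07). The Rfam precursor models of both families were also lower, MIR164 from 129, 215 and 100 reads to 19, 16 and 14 and MIR396 from 100, 330 and 48 reads to 37, 3 and 20, the latter with overlap between the days in CPM. Their reads can come from the same hairpins, so these entries are no independent evidence.

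The calls of the other developmental families were smaller than these. The family miR169, which targets NF-YA factors, was at 148, 123 and 161 CPM and then at 398, 243 and 276 CPM (log2 1.08, SE 0.20, adjusted p = 0.00167), but hairpins held 49.9% and 71.0% of its reads and the mature entries alone changed by 0.31 (adjusted p = 0.483). The family miR170, a relative of miR171, went from 683, 780 and 796 to 1029, 1370 and 1270 CPM (log2 0.70, SE 0.12, adjusted p = 0.00141), which was not called with library totals alone (0.24, adjusted p = 0.185). The family miR171, which targets GRAS factors of the HAM group that maintain meristems, was at 4909 ± 136 and 5656 ± 260 CPM: its log2 change of 0.20 (SE 0.07, adjusted p = 0.0285) turned to -0.27 under library totals and -0.078 under scaling to all reads. The abundant miR166, which targets the HD-ZIP III factors of leaf and embryo polarity, was at 36023 ± 2877 and 28761 ± 1002 CPM. Its log2 change of -0.32 (SE 0.11, adjusted p = 0.0332) turned to 0.28 with miRNA totals and to 0.22 with mature entries alone, and hairpins held 48.8% and then 25.1% of its reads. Dropping replicate 1 or 2 of day 22, or replicate 2 or 3 of day 37, ended the call (adjusted p 0.0718 to 0.09).

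In all 9 developmental families were tested, with 3 higher and 3 lower, beside 19.1% higher and 32.4% lower over all small RNAs, while miR159, miR319 and miR394 did not pass. The change was 0.18 for miR159, which targets GAMYB factors, -0.41 for miR319, which targets TCP factors, and -0.74 for miR394, which targets the F-box gene LCR. For miR394 the day 37 libraries spread from 142 over 254 to 447 CPM, against 448 to 497 CPM at day 22, and without day 37 replicate 3 it was lower at -1.24 (adjusted p = 0.00428). Without the same library miR319 was lower at -0.65 (adjusted p = 0.0102).

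**Figure D2:**
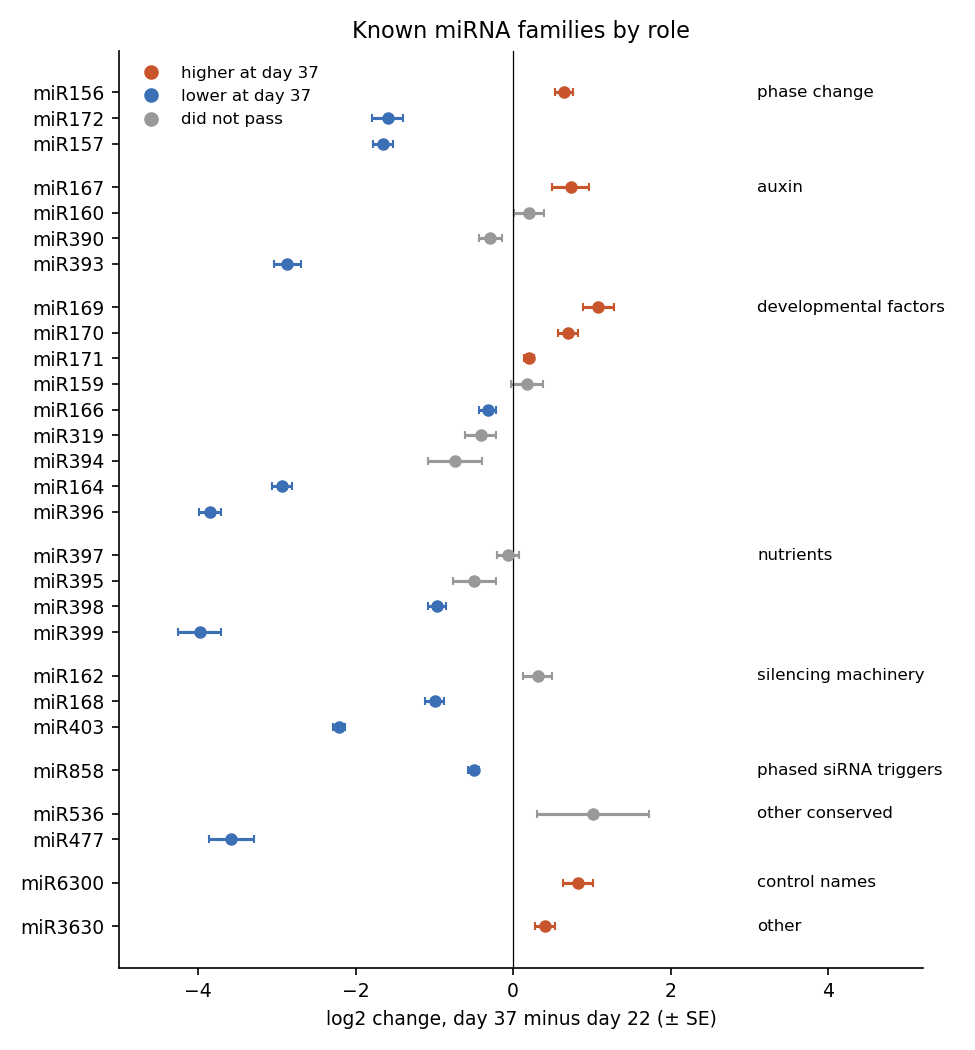
Log2 change from day 22 to day 37 of the named miRNA families, grouped by role, where points are the fitted changes of 3 against 3 libraries and bars the SE. The largest falls were those of miR399 (-3.98), miR396 (-3.85) and miR477 (-3.58), and the largest called rise was that of miR169 (1.08), while the directions of miR171 and miR3630 turned with library totals alone and those of miR166 and miR858 with miRNA totals.

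Of the 4 nutrient families in the table, miR399 and miR398 fell and none rose, beside 19.1% higher and 32.4% lower over all small RNAs. The family miR399, the phosphate-starvation signal that represses the ubiquitin-conjugating enzyme PHO2, went from 121, 162 and 217 CPM to 7.69, 12.3 and 11.4 CPM (log2 -3.98, SE 0.27, adjusted p = 4.95e-06). The family miR398, which targets copper/zinc superoxide dismutases, went from 661, 678 and 643 to 347, 301 and 367 CPM (log2 -0.97, SE 0.11, adjusted p = 0.00013). The copper-linked miR397, which targets laccases, was at 265 ± 18.9 and 253 ± 28.8 CPM, and the sulfate-linked miR395 stood at 39.3 ± 7.31 and 28.1 ± 9.54 CPM, and both turned upward with miRNA totals (0.54 and 0.115).

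The families that act on the silencing machinery itself went down or did not pass. The family miR168, which targets AGO1, was at 29601, 26726 and 24088 CPM at day 22 and at 12654, 12613 and 15025 CPM at day 37 (log2 -0.997, SE 0.12, adjusted p = 0.000154). The family miR403, which targets AGO2, was at 902, 970 and 965 CPM and then at 199.9, 196 and 216 CPM (log2 -2.21, SE 0.07, adjusted p = 1.78e-07), below its 343 CPM of day 7. The family miR162, which targets DCL1, was at 175 ± 30.7 and 217 ± 50.0 CPM with overlap between the days (log2 0.31, adjusted p = 0.187, and -0.17 with library totals alone).

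Of the listed triggers of phased siRNAs, miR858, which targets MYB factors, was in the table. It was at 12786, 13296 and 12066 CPM and then at 9263, 8633 and 9049 CPM (log2 -0.50, SE 0.07, adjusted p = 0.00025), a change that turned to 0.11 with miRNA totals. The family miR477 fell from 54.6, 32.8 and 58.8 CPM to 5.38, 3.33 and 3.56 CPM (log2 -3.58, SE 0.29, adjusted p = 1.48e-05), and hairpins held 96.0% and 94.1% of its reads. The family miR536 did not pass (log2 1.01, SE 0.71, adjusted p = 0.282): it stood at 3077, 3623 and 1779 CPM at day 22 and at 1363, 2990 and 12706 CPM at day 37, with the highest value in day 37 replicate 3, and its change was -0.38 without that library. At day 7 it had 4.03 to 10.3 CPM. Outside the lists miR3630 was higher, at 178 ± 5.05 and 236 ± 38.7 CPM (log2 0.40, SE 0.13, adjusted p = 0.0266), which turned to -0.07 with library totals alone. That call was lost without each of the 6 libraries except day 37 replicate 3 (adjusted p 0.0556 to 0.0849). The name miR6300, one of those listed as matching transfer or ribosomal RNA, rose from 87.9, 106 and 62.5 CPM to 149.5, 139 and 163 CPM (log2 0.82, SE 0.19, adjusted p = 0.00672), in the same direction as the structural RNA. Hairpins held 46.6% and 53.2% of its reads, and the mature entry alone did not pass (log2 0.62, adjusted p = 0.121).

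**Figure D3:**
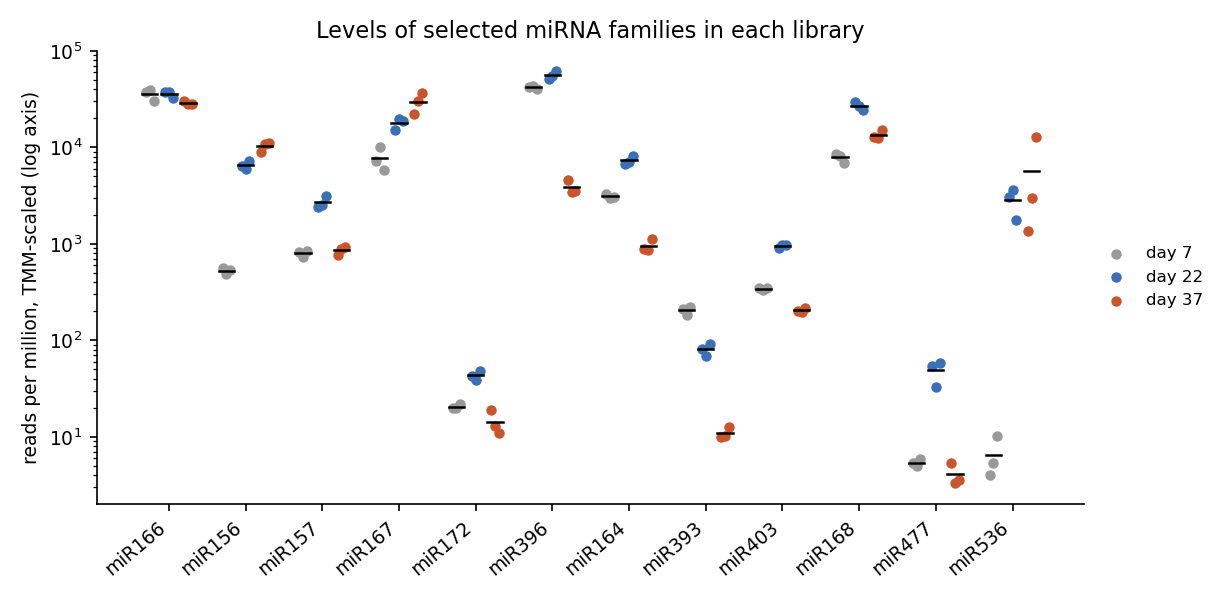
Level of 12 miRNA families in each library at days 7, 22 and 37, in CPM on a log axis, with the mean of 3 libraries as a black line. Day 37 lies below day 22 in all libraries for miR396, miR164, miR393 and miR403, while the day 37 libraries of miR536 span 1363 to 12706 CPM.

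Of 43 predicted miRNAs tested, 13 were higher at day 37, 9 lower and 21 did not pass, beside 19.1% higher and 32.4% lower over all small RNAs. Of the 10 with a length of 20 to 22 nt, that of most plant miRNAs, 5 were higher and 3 lower, and of the 22 with 25 to 30 nt 7 were higher and 4 lower. The most abundant of the named rises, novel_mir60, lies at NC_035444.1:161886360-161886557 on the plus strand, a position given as deposited on a build not given in the sources used here. It had 121, 141 and 109 CPM at day 22 and 619, 485 and 742 CPM at day 37, 4.98-fold more (log2 2.32, SE 0.17, adjusted p = 8.41e-06). The precursor of novel_mir60 also holds 4 siRNA guides, of which 3 were higher. Those guides occur in the precursors of novel_mir58 and novel_mir59 as well, so their reads cannot be assigned to one of them. An origin of novel_mir60 or of these guides as fragments of structural RNA was not tested.

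The other named rises were entries of 28 to 30 nt. The entry novel_mir92 was listed at 0 at days 7 and 22 and at 85.3, 43.6 and 30.6 CPM at day 37 (adjusted p = 0.00141). Since no predicted entry is listed with fewer than 10 reads, a 0 was taken to allow 9 reads in each library, which makes this at least 20.6-fold higher. In the same way novel_mir18, at 0 in all day 22 libraries, had 45.4, 14.0 and 10.7 CPM, at least 9.04-fold higher. The entry novel_mir78 went from 8.69 ± 5.33 to 99.4 ± 28.6 CPM and novel_mir8 from 17.4 ± 6.35 to 146 ± 80.9 CPM. In these 4 entries the highest library was day 37 replicate 1, the library with the most structural RNA, and whether they are fragments of structural RNA was not tested.

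Among the named falls of predicted miRNAs, the entry novel_mir9, from NC_035435.1:55117526-55117854 on the plus strand, had 59.2, 57.2 and 69.0 CPM at day 22 and 0 in all libraries of day 37, at least 19.2-fold lower (adjusted p = 2.39e-06). It peaked at day 22, with 4.03 CPM at day 7. Its precursor holds 4 siRNA guides, all lower, beside 32.4% lower over all small RNAs. They lie in the same precursor, so they are no separate finding. The entries novel_mir25 (30.96 ± 4.24 CPM at day 22) and novel_mir53 (23.4 ± 1.01 CPM) were also at 0 in all day 37 libraries, at least 9.62-fold and 7.28-fold lower. The entry novel_mir57 went from 174, 186 and 205 to 23.1, 24.97 and 28.5 CPM (log2 -2.88, SE 0.12, adjusted p = 4.53e-07), further down from 394 CPM at day 7. The entry novel_mir40, level between days 7 and 22 at 79.8 and 77.1 CPM, was at 36.9 ± 10.3 CPM at day 37 (log2 -1.06, SE 0.17, adjusted p = 0.000672).

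Of 2500 tested 21-nt siRNAs 485 (19.4%) were higher and 944 (37.8%) lower, of 1572 of 22 nt 543 (34.5%) were higher and 465 (29.6%) lower, and of 2521 of 24 nt 182 (7.22%) were higher and 742 (29.4%) lower, beside 19.1% and 32.4% over all small RNAs. Reads at day 22 or day 37 were listed for 2416, 1535 and 1767 of these, in the order of length. The rest could not be called, which lowered the shares of rises and of falls most at 24 nt. Among those with reads at either day, the log2 changes had medians of -0.39, 0.13 and -0.84, in the order of length. With every 0 set to 9 reads these medians were -0.25, 0.21 and -0.32, so that at 24 nt the size rests on how zeros are treated. The 22-nt siRNAs had the highest share of rises among these 3 lengths and the 24-nt siRNAs the lowest. With miRNA totals 343 of 24 nt were higher and 378 lower, and with library totals alone 118 were higher. A difference between lengths was not tested, since entries are not replicates.

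Among 22-nt siRNAs with reads at either day, 364 of 1535 (23.7%) had a log2 ratio of mean CPM between 1 and 2 with a 0 set to 9 reads, apart from a main peak near 0, and 312 of these passed the test. At 21 nt that share was 10.8% and at 24 nt 4.87%. Ratios below -2 on this scale made up 13.7%, 14.1% and 3.68% at 21, 22 and 24 nt, but fitted changes below -2 made up 27.5%, 24.2% and 29.4%, so that the low value at 24 nt rests on the limit set for zeros. Entries with reads in all day 22 libraries and in none of day 37 numbered 339 at 21 nt, 157 at 22 nt and 203 at 24 nt, while the reverse held for 13, 25 and 8. All 731 small RNAs of the first kind and all 48 of the second passed the test, among the 2311 falls and 1359 rises. The test took a listed 0 as 0 reads, so these calls rest in part on the listing limit. With a 0 set to 9 reads some changes were small: novel_mir82, at log2 -6.83 in the fit, was 1.40-fold lower.

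**Figure D4:**
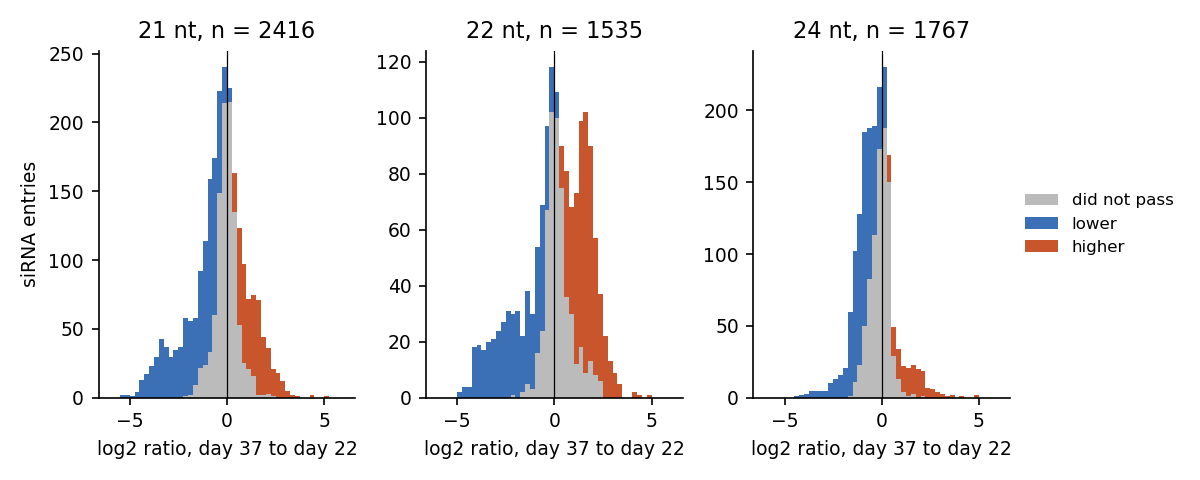
Number of siRNA entries by log2 ratio of mean CPM at day 37 to day 22, with a 0 set to 9 reads, for guides of 21, 22 and 24 nt with reads at either day, coloured by the edgeR call. The 22-nt panel has a second group of higher entries between 1 and 2, where the 24-nt panel has few (4.87%).

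Of the 24-nt siRNAs tested, 83.1% began with A, the base of typical AGO4-bound siRNAs, and of these 4.91% were higher and 30.2% lower, whereas of those that began with C 22.1% were higher and 30.3% lower. Among all 24-nt rises 56.6% began with A and 25.3% with C, while among the falls 85.4% began with A and 8.49% with C. The median GC content was 52.1% in the 24-nt rises and 45.8% in the falls. At 21 nt the rises and falls began with A alike, in 36.1% and 36.4%. These are descriptions of entries that share loci and libraries. The shares called are of all entries tested, including those without reads at day 22 or day 37, which could not be called.

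The 24-nt guides with the largest changes are shown as pairs with their shared stretch in capitals, because in each direction 2 of the 5 named guides shared 18 or more bases. The first pair was higher at day 37 and the second lower.
novel_sir19385: taacCAAGGGCCAAATCGCAAAGT
novel_sir7230: aatCAAGGGCCAAATCGCAAAGTt
novel_sir9712: ctgacaCGACTTGTGAGAAACCGG
novel_sir17429: CGACTTGTGAGAAACCGGtgaaca
The guide novel_sir7230 went from 8.33, 5.32 and 9.11 CPM to 121, 158 and 148 CPM (log2 4.21, SE 0.28, adjusted p = 4.33e-06), and novel_sir19385 from 0 in all day 22 libraries to 92.2, 76.2 and 71.1 CPM, at least 30.9-fold more. They share 20 bases but differ in the base just before these, so they are not shifted reads of one sequence. The guide novel_sir17429 went from 236, 237 and 214 to 15.4, 13.6 and 15.3 CPM (log2 -3.95, SE 0.10, adjusted p = 7.28e-08), after 580 CPM at day 7. The guide novel_sir9712 had 301 CPM at day 7, 60.9 ± 5.71 at day 22 and 0 at day 37. Of the 5 named 24-nt falls, novel_sir19223 had the highest day 7 level, 1572 CPM, then 126 ± 27.4 and 7.47 ± 2.70 CPM. All 5 named 24-nt falls were higher at day 7 than at day 22, so day 37 was the lowest of the 3 days in mean level. The rise novel_sir14440 had 100 ± 17.7 CPM and then 1786, 967 and 810 CPM, again highest in day 37 replicate 1. Whether this guide is a fragment of structural RNA rather than a product of DCL3 was not tested.

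Of the 21-nt guides with the largest changes, several were listed at 0 in all libraries of one day. The sequences of those shown do not overlap each other, except that novel_sir8523 is contained in a 22-nt guide. Capitals mark the first base, or, in the last 2, the shared stretch.
novel_sir15571: Gcctctaagtcagaatccatg
novel_sir17709: Aaagacgaacaactgcgaaag
novel_sir10051: Aggatcaatgtgtcgagaccc
novel_sir1006: Aaccgacattggccacgcttc
novel_sir8523: GACAAATACCGATCGAGGCTT
novel_sir8524: aGACAAATACCGATCGAGGCTT
The guide novel_sir15571 was listed at 0 at days 7 and 22 and had 77.6, 90.9 and 83.6 CPM at day 37, at least 32.6-fold more (adjusted p = 2.51e-05). The guide novel_sir17709 was likewise at 0 and then at 63.0, 46.6 and 64.0 CPM, at least 22.4-fold more. In the other direction, novel_sir10051 went from 124, 124 and 144 CPM to 0, 0 and 3.56 CPM and novel_sir1006 from 126, 123 and 132 CPM to 0, 0 and 3.56 CPM. With zeros at 9 reads these falls were 39.1-fold and 38.1-fold. The pair novel_sir8523 and novel_sir8524 fell together, from 132 ± 8.85 to 3.11 ± 2.78 CPM and from 85.7 ± 5.89 to 1.22 ± 2.11 CPM.

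The named 22-nt guides followed both patterns. With a 0 set to 9 reads the largest of the named rises, at 27.8-fold, was that of novel_sir13602 (Actgaaccttatcatttagagg). It had 2.87, 0 and 10.4 CPM at day 22 and 262, 82.2 and 103 CPM at day 37 (log2 4.98, SE 0.87, adjusted p = 0.00125), with 4.31 without day 37 replicate 1 and 6.63 without day 22 replicate 3. This guide is among those in the precursors of novel_mir58, novel_mir59 and novel_mir60, so it is no separate finding from novel_mir60. Its origin as a fragment of structural RNA was not tested. By fitted change novel_sir7822 (Acacaggtctccgcaaagtcgt) stood above it, at 0, 0 and 2.60 CPM and then 55.3, 50.9 and 31.7 CPM (log2 5.56, SE 0.81, adjusted p = 0.00126). With a 0 set to 9 reads its rise was 17.2-fold, and without day 22 replicate 3 the other day 22 libraries were all at 0 and the fitted change was 10.1. The most abundant named fall, novel_sir13758 (Caacaagttgttaaccgagaca), went from 626, 669 and 699 to 24.6, 28.3 and 30.6 CPM (log2 -4.57, SE 0.10, adjusted p = 5.75e-08), after 1296 CPM at day 7. The guides novel_sir7470 and novel_sir12006, with 328 and 334 CPM at day 7, were at 95.9 ± 7.96 and 91.1 ± 4.35 CPM at day 22 and at 0 in all libraries of day 37. All 5 named 22-nt falls but novel_sir8524 were higher at day 7 than at day 22.

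The order of the most abundant guides changed between the days. At day 22 the first was novel_sir15071 (Atcgaacaggttcaaggcatc), 21 nt long, at 34605, 35233 and 28375 CPM, and it fell to 14464, 11513 and 11460 CPM (log2 -1.39, SE 0.16, adjusted p = 0.000124), close to its 13024 CPM of day 7. At day 37 the first was novel_sir17151, shown above, at 12624, 13231 and 12671 CPM and then at 36826, 40851 and 39355 CPM (log2 1.60, SE 0.10, adjusted p = 3.64e-06), after 1253 CPM at day 7. Its 21-nt form novel_sir11739, which lacks the last base, rose less, from 11825 ± 454 to 27045 ± 2917 CPM (log2 1.19, SE 0.09, adjusted p = 1.14e-05). Of the 13 overlapping entries, 12 lie wholly in one stretch of 33 bases, with 11 distinct guides, and together these 12 went from 29196 ± 645 to 78686 ± 7263 CPM, with 11 higher. The twelfth, novel_sir13924, has the same guide as novel_sir13922 with another passenger strand and did not pass (log2 0.52, adjusted p = 0.182), and the entry outside the stretch, novel_sir6826, ends in another base. The abundant novel_sir8790 and novel_sir8071 did not pass (log2 0.13 and 0.27, which turned to -0.34 and -0.20 with library totals alone). The guide novel_sir14147, with log2 -0.22 and adjusted p = 0.0496, turned to 0.37 with miRNA totals, and its call was lost without each of the 6 libraries except day 37 replicate 3.

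The 6951 tested siRNAs with a sequence held 6783 distinct guides: 316 entries shared their guide with another, and in 57 of the 148 shared guides the calls were unequal. Joining guides that share at least 14 bases put 3777 of 6951 siRNAs into 1143 groups. Of these groups 848 had at least one call, and 36 of them had calls in both directions. Counted as groups and single guides, 742 of 4317 held only rises among their calls and 1531 only falls. Over all small RNAs 19.1% were higher and 32.4% lower, together 51.5%, so these counts set the groups little apart. The group led by novel_sir15189 (ctccattaggaactagctagcaac) had 14.3 CPM at day 7, then 1227, 1248 and 1268 CPM, and then 4728, 5727 and 5274 CPM. Of its 6 members 3 were higher and none lower. The group led by novel_sir153, a 27-nt guide (aacgggcaaagcccgcgtcgacctttt), went from 5376, 5805 and 3902 to 24137, 21423 and 20914 CPM, with 5 of 6 members higher. Whether the guides of this group are fragments of structural RNA was not tested. Groups among the largest falls had been abundant early: the 22 guides led by novel_sir11443 (ggatgcctcctagacctaagtaat) summed to 2793 CPM at day 7. They then summed to 138 ± 8.95 and 2.47 ± 2.14 CPM, with 12 lower and none higher. The 16 led by novel_sir9492 (ataatccgatcttgaacaccccta) summed to 3244, 190 ± 27.0 and 7.22 ± 6.52 CPM, with 7 lower and none higher. These 4 groups were chosen after their values were seen, as those among the largest rises and falls of the 159 groups with at least 5 members and 100 CPM.

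The precursor with the most siRNA guides was a long fold-back, chosen after values were seen. The deposited precursor of novel_mir20, at NC_035436.1:157109532-157110653 on the plus strand, is 1121 bases long, and its first and last 560 bases are reverse complements of each other at 94.1% of positions. It holds 23 siRNA guides, 13 in its first arm and 10 in its second, of which 19 are 22 nt long. All 23 were lower at day 37, beside 32.4% lower over all small RNAs. Several of these guides overlap in position, so they are not independent of each other. Their summed level was 399 ± 5.28 CPM at day 7, 1634 ± 44.0 at day 22 and 223 ± 17.9 at day 37, and 9 of them were at 0 in all day 37 libraries. The test took a listed 0 as 0 reads. With a 0 set to 9 reads the log2 ratios of these 9 guides ran from -3.63 to -0.23, so some of these calls rest on the listing limit. The sequences below are from this fold-back, with the first base in capitals, and the first and the second are exact reverse complements from opposite arms.
novel_sir8748: Atgtaatgatagtttcgagccc
novel_sir9764: Gggctcgaaactatcattacat
novel_sir16474: Cattacatatccgttcacacg
novel_sir10093: Atcattacatatccgttcacac
The most abundant, novel_sir8748, went from 237 ± 6.76 to 32.9 ± 4.93 CPM (log2 -2.84, SE 0.11, adjusted p = 3.45e-07). The other strand, novel_sir9764, was rare, at 5.18 ± 3.02 CPM and then 0. Guides of 22 nt from long perfect hairpins are known as products of DCL2 rather than of the miRNA pathway, in Arabidopsis. The arms here match at 94.1% of positions, and the enzyme that makes these guides was not tested.

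**Figure D5:**
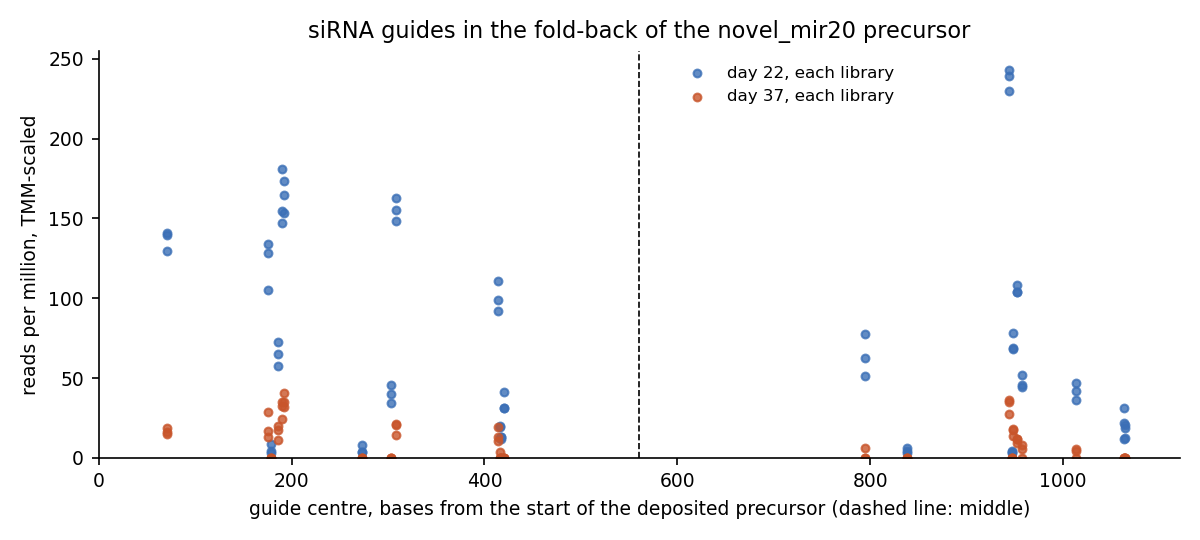
Level of the 23 siRNA guides in the novel_mir20 precursor by position of the guide's centre, counted in bases from the start of the deposited precursor, in CPM, where each point is 1 library. Guides from both arms are lower in the day 37 libraries, from a highest mean of 237 CPM at day 22 to at most 35.9 CPM at day 37.

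Guides from other deposited precursors moved in both directions. In all, 106 siRNAs were found within 35 of the 95 precursors, of which 15 were higher and 57 lower, beside 19.1% higher and 32.4% lower over all small RNAs. The fold-back of novel_mir20 alone gave 23 of these falls, and of the other 83 guides 15 were higher and 34 lower. The 6 guides in the precursor of novel_mir87 were all lower, from a sum of 1595 ± 42.3 to 248 ± 7.36 CPM. The 3 in that of novel_mir19 were all higher, from 1687 ± 123 to 3899 ± 534 CPM. The 13 in that of novel_mir50 had 4 falls and no rise, at 1408 ± 65.6 and 957 ± 144 CPM.

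Structural RNAs were higher in 43 of 103 tested entries and lower in 7, with a median log2 change of 0.63, beside 19.1% higher and 32.4% lower and a median of -0.15 over all small RNAs. All 9 ribosomal entries tested were higher. The small-subunit model went from 39188, 42931 and 26112 CPM to 183435, 120793 and 135621 CPM (log2 2.02, SE 0.22, adjusted p = 8.67e-05), the 5.8S model from 6456 ± 2427 to 34159 ± 9114 CPM and the large-subunit model from 5592 ± 2417 to 29465 ± 17518 CPM. The transfer RNA model had 949, 1506 and 1064 reads at day 22 and 13234, 1792 and 2252 at day 37, with the highest value in day 37 replicate 1. The same library carried the 5S model (1490 reads against 216 and 169) and the U1 model, the spliceosomal RNA that pairs with the start of introns (700 against 149 and 110). The 5S change was 4.13 in all and 2.30 without that library (adjusted p = 0.00548), and that of the archaeal large-subunit model, 3.03, was not called without it (1.42, adjusted p = 0.0721), nor without day 22 replicate 1 or 3 (adjusted p 0.0551 and 0.0707). The large-subunit change was 2.40 in all and 1.80 without it.

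Small nucleolar RNAs, which guide the modification of ribosomal RNA, were higher in 24 of 41 entries and lower in 1, against 19.1% and 32.4% over all small RNAs. The Rfam model Afu_294, a fungal snoRNA by name, went from 375, 395 and 296 reads to 3962, 2612 and 3438 (log2 3.55, SE 0.24, adjusted p = 5.38e-06), and snoR64a from 105, 90 and 106 reads to 271, 267 and 269 (log2 1.75, SE 0.10, adjusted p = 2.07e-06). Plant U3, which serves the processing of the ribosomal precursor, was at 132 ± 16.9 and 87.8 ± 11.7 CPM (log2 -0.59, SE 0.14, adjusted p = 0.00701), a change that turned to 0.03 with miRNA totals. The spliceosomal U6 was level in this scaling, at 1539, 1552 and 1489 CPM and then 1571, 1522 and 1461 CPM (log2 -0.01, SE 0.07), but -0.48 under library totals and 0.60 under miRNA totals, so its direction follows the scaling. The minor spliceosomal U6atac had 100, 102 and 71 reads and then 41, 31 and 32 (log2 -1.08, SE 0.31, adjusted p = 0.0167), a call that ended when replicate 1 or 2 of day 22, or replicate 2 or 3 of day 37, was dropped (adjusted p 0.0524 to 0.0604). Plant signal recognition particle RNA rose from 77, 87 and 75 reads to 413, 286 and 276 (log2 2.36, SE 0.25, adjusted p = 6.69e-05). Without day 37 replicate 1, 32 structural entries were higher.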

How the data were processed

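The whole-number counts per small RNA entry were used as deposited. Per the labels' protocols, RNA of 18 to 30 nt was cut from a gel and its adapters carried unique molecular identifiers. Bowtie2 is named in the submitters' processing notes with no version or role. Neither counting tool nor genome build was given in the sources used here. Columns headed TPM, per the file headers, do not add up as TPM would and were treated as a score, used in one alternative. Sequences and positions of predicted miRNAs and siRNAs are as deposited, and some entries are not reported here.

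Known entries were summed by family. One edgeR 4.0.16 quasi-likelihood fit (R 4.3.3, TMM factors, filterByExpr by day) of all 9 libraries gave day 37 against day 22, adjusted by Benjamini-Hochberg over 7132 small RNAs with a threshold of 0.05. DESeq2 1.42.0 and limma 3.58.1 served as alternatives. The fit was tested on simulated data. No predicted entry has a listed count between 1 and 9, so a 0 was set to 9 reads for bounds (3 for structural RNA). Shares were compared by exact permutation.

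Named entries were every listed family of at least 10 CPM, other families of that level that passed, and in each class the 5 largest rises and falls that did not overlap, with the 5 most abundant. The precursor models of miR393 and MIR396, the transfer RNA, U1, snoR64a and signal recognition particle models, overlap groups, ratio ranges and precursors were chosen after values were seen. All members and lists were chosen with earlier results of these data known. Replicates of a day differed beyond sampling noise (chi-square per degree of freedom 4.81 to 50.5), so each counted as 1 sample. Unique molecular identifiers are named, but whether counts are of molecules is not stated.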

Additional observations from a re-analysis of the deposited data

How the results depend on the processing

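Across the alternatives tried, named families kept their direction and their side of the threshold in 460 values, lost the call in 36, gained it in 15 and changed sign in 22, and other named entries did so in 1020, 25, 15 and 16. The cause was not tested. With miRNA totals 2051 small RNAs were higher and 1448 lower, with 776 higher at 21 nt, 343 higher and 378 lower at 24 nt and 2 structural RNAs lower. With library totals alone 317 were higher at 21 nt and 118 at 24 nt, and 13 structural RNAs were lower, as were 12 under scaling to all reads. Families higher numbered 1 with library totals alone, 4 with all reads, 13 with miRNA totals, and 5 with the column headed TPM or with mature entries alone. Taken as single entries, where more features are tested, 32 were higher and 52 lower. Leaving out a replicate gave 5 to 7 families higher, 11 to 13 lower, and 3 to 9 structural RNAs lower.

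The difference in 21-nt share turned to 0.0912 percentage points of all reads and to 0.926 without structural RNA in the denominator. Without the 10 most abundant entries the 22-nt difference was -1.15 and that of 18 to 20 nt -0.0362. Leaving out a replicate gave -0.0547 to 1.07 at 22 nt, -0.158 to 0.303 at 18 to 20 nt, and -0.0809 to 0.112 for predicted miRNAs, where day 22 replicate 3 left out gave -0.0662.

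Changes of sign with library totals alone were -0.28 for miR159, -0.26 for miR160, -0.17 for miR162, -0.27 for miR171, -0.068 for miR3630, -0.34 for novel_sir8790 and -0.20 for novel_sir8071. Under scaling to all reads they were -0.082 for miR159, -0.072 for miR160, -0.078 for miR171, -0.15 for novel_sir8790 and -0.0094 for novel_sir8071. With miRNA totals they were 0.28 for miR166, 0.16 for miR319, 0.31 for miR390, 0.115 for miR395, 0.54 for miR397, 0.11 for miR858, 0.030 for plant U3, 0.37 for novel_sir14147 and 0.60 for U6. With mature entries alone miR166 was at 0.22. The family miR397 and the model U6 were at 0.085 and 0.15 with RLE factors, 0.095 and 0.15 with the upper quartile, and 0.085 and 0.145 with DESeq2. U6 was also at 0.0097 without structural RNAs, 0.028 with at least 10 CPM in 3 libraries and 0.038 with the 6 libraries alone. Leaving out a replicate gave -0.031 to 0.35 for miR159, -0.048 to 0.34 for miR160, -0.38 to 1.47 for miR536 and -0.033 to 0.018 for U6, and, without day 22 replicate 3, 0.018 for miR397.

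Replicate numbers did not pair the libraries (correlations of same-numbered deviations 0.041, -0.019 and 0.027). With the replicate block 1205 small RNAs were higher and 1912 lower, with families at 6 and 13, and miR171 (adjusted p = 0.0621) and novel_sir14147 (adjusted p = 0.0633) were no longer called, while miR394 was (adjusted p = 0.047). Joining miR157 to miR156 and miR170 to miR171 was added after the data were seen. The exact permutation test of a share could not go below p = 0.1, and entries under about 10 reads are not listed among the predicted RNAs, so low levels were not detectable there.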
